A study of Mus musculus with 12 samples.

Results

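The p53 target genes are genes whose transcription is switched on by the tumour suppressor p53, encoded by Trp53 in the mouse, together with Trp53 itself. They were taken here as a written list of 33 gene symbols and read as the rows that carry these symbols in a table of 34745 genes. The list was grouped by role into p53 and its inhibitors (4 genes), cell cycle arrest (7), death receptors and apoptosis (12), DNA repair and nucleotide supply (4), and metabolism, a secreted factor and RNA binding (6). The list is defined by symbols alone, and it was drawn up with earlier results of these data known.

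RNA was sequenced from 12 libraries of MLE-12 cells, a mouse lung epithelial line used as a model of alveolar type II (AT II) cells, in 4 groups of 3. The LPS groups received 100 ng/mL of lipopolysaccharide under 21% oxygen, with (LPS + M2-Exo) or without (LPS) 10 µg/mL of M2-Exo. The hyperoxia groups were kept under 85% oxygen with (Hyp + M2-Exo) or without (Hyp) the same dose, and all samples are labelled 24 h. By the study's methods M2-Exo followed the LPS or oxygen exposure, and how the 24 h were divided is not stated. M2-Exo are exosomes, small vesicles that cells release, collected from alveolar macrophages of the MH-S line that had been turned with interleukin 4 to the M2 state. The libraries hold no untreated cells, so each difference between Hyp and LPS is a difference between 2 injuries, and the effects of oxygen, of LPS and of any separate handling of the 2 models cannot be told apart.

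In an undamaged cell p53 is kept scarce by Mdm2, which marks it for destruction and is itself a p53 target. DNA damage and other stresses free p53 from Mdm2, and it then turns on genes that halt the cell cycle, repair DNA, adjust metabolism or start apoptosis. Excess oxygen damages DNA in lung epithelium, and p21, the product of Cdkn1a, is a well known p53 target in that setting. The MLE-12 line was made from a mouse lung tumour driven by the SV40 large T antigen, a viral protein that binds p53, which limits it as a model of p53 function, and the activity of the p53 protein was not measured.

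Total counts ranged from 16021833 to 19185116 reads in the 6 LPS libraries and from 20231632 to 24074616 in the 6 hyperoxia libraries. The biological coefficient of variation was 8.78% to 9.41% across the comparisons. Nothing in the sample descriptions says that the replicates came from separate cultures, so the p-values measure only the spread between these samples. Of the AT II markers, Sftpc lay at 13.5 to 28.2 FPKM (fragments per kilobase of gene and per library total) and Abca3 at 12.7 to 17.8 FPKM, whereas Sftpa1 and Sftpd were at or near 0 and Epcam did not exceed 0.556 FPKM. The macrophage markers were 12 genes including Lyz2, Adgre1 and Csf1r. Their sums were 134.4 to 152.4 FPKM in LPS and 104.8 to 117.9 in LPS + M2-Exo. In Hyp they were 38.7 to 41.4 FPKM and in Hyp + M2-Exo 30.1 to 46.8. Lyz2 reached the highest level of these genes, with 15.1 to 85.5 FPKM across all libraries. Whether the RNA of this list came from macrophages was not tested. The defining M2 markers Arg1 and Mrc1 did not exceed 0.127 and 0.202 FPKM. The fibroblast list, carried by Dcn, summed to 344.5 to 374.4 FPKM in the LPS libraries and 159.1 to 172.9 in the hyperoxia libraries. The AT II and epithelial list of 13 genes was lower as well, at 195.7 to 207.4 FPKM in LPS and 186.9 to 206.0 in LPS + M2-Exo against 132.5 to 142.4 in Hyp and 131.3 to 141.6 in Hyp + M2-Exo. These 3 lists were thus lower in hyperoxia without overlap. The endothelial list of 4 genes went the other way at very low levels, with sums of 0.0134 to 0.0677 FPKM in the LPS libraries and 0.317 to 0.420 in the hyperoxia libraries. The part of the 4 lists in the differences between Hyp and LPS was not tested. In bulk RNA a change in the number of cells of a type and a change in RNA per cell cannot be told apart.

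The p53 protein binds DNA as a tetramer at 2 copies of a short half-site. The promoter sequences from RefSeq (GRCm38.p6, 250 bases before to 50 after a start) covered 25 of the 33 genes in 36 windows. The consensus p53 half-site, which is its own reverse complement and so reads alike on both strands, was present in the windows of 11 of these 25 genes (44.0%) and of 9.55% of all 27025 genes with a window. A pair of half-sites with a spacer of at most 13 bases was present in 1 of the 25, Cdkn1a, and in 0.074% of all genes. The 250 bases upstream of the start are given for 5 genes that have a half-site and that differed between the injuries, 4 of them higher and 1 (Sesn1) lower in hyperoxia, chosen after their values were seen; capitals mark the half-site, and each sequence runs 5′ to 3′ on the strand of the gene.
Cdkn1a (chr17:29090729-29090978, plus strand): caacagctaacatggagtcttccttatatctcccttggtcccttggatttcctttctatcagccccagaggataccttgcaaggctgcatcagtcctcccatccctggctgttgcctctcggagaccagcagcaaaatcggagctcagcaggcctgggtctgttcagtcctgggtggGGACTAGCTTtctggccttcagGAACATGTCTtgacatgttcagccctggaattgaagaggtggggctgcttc
Mdm2 (chr10:117710759-117711008, minus strand): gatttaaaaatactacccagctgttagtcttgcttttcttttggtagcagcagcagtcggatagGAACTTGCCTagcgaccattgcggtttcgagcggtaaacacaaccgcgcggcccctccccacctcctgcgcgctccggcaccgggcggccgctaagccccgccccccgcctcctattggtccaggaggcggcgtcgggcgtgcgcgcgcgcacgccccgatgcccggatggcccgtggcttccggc
Ccng1 (chr11:40755287-40755536, minus strand): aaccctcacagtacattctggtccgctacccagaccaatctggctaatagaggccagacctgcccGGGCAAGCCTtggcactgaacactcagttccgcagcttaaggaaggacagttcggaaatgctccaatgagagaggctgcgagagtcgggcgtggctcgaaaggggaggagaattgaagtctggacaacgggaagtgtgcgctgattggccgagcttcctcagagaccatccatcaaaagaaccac
Ppm1d (chr11:85311004-85311253, plus strand): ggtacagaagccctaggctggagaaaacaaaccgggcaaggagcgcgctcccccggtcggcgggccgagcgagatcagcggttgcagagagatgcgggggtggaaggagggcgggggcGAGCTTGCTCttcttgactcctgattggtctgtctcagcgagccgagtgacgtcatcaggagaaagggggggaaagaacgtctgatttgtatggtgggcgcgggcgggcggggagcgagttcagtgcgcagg
Sesn1 (chr10:41887189-41887438, plus strand): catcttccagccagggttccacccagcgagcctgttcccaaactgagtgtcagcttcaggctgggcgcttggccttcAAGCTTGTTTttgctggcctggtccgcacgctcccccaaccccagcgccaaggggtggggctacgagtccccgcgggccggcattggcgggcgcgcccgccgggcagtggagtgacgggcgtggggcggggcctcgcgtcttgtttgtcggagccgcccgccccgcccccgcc

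In Cdkn1a the half-sites began at positions -73 and -51 relative to the start at chr17:29090979, where the table also starts the gene, and a second Cdkn1a window, at chr17:29093519-29093818, held none. The Mdm2, Ccng1 and Ppm1d half-sites began at positions -186, -185 and -132, and that of Sesn1 at position -173 of the window shown, the second of its windows. Of the 11 genes with a half-site, 8 were higher and 3 lower in Hyp than in LPS. Among the 14 without one, 10 were higher, 3 lower and 1 was not called, so the shares were similar in both sets. Of all genes tested, 38% were higher and 37.8% lower. A match is a description of the letters only, and the absence of one, as in Plk3, Plk2 and Fas, says only that these windows lack the letters.

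The comparison of Hyp with LPS asked how the 2 injuries differ in these genes. All 33 passed the filter on low counts and were tested among 13805 genes with the quasi-likelihood F test of edgeR, called at a Benjamini-Hochberg adjusted p under 0.05. Of the 33, 22 were higher in Hyp (66.7%, against 38% of all genes tested) and 7 were lower (21.2%, against 37.8%), and 4 were not called (Perp, Xpc, Apaf1 and Pmaip1). The median log2 fold change of the 33 genes was 0.52, against 0.0091 over all genes tested. TMM factors of 0.960 to 1.033 put the fitted folds of Hyp over LPS slightly below the ratios of FPKM. A fold given as lower in Hyp therefore lies slightly above the FPKM ratio of LPS over Hyp. Asking also for a difference of 1 or more on the log2 scale, 6 were higher (Cdkn1a, Eda2r, Plk3, Aen, Gdf15 and Polk), against 10.2% of all genes, and 3 lower (Sesn1, Fas and Sfn), against 13.7%.

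**Figure D1:**
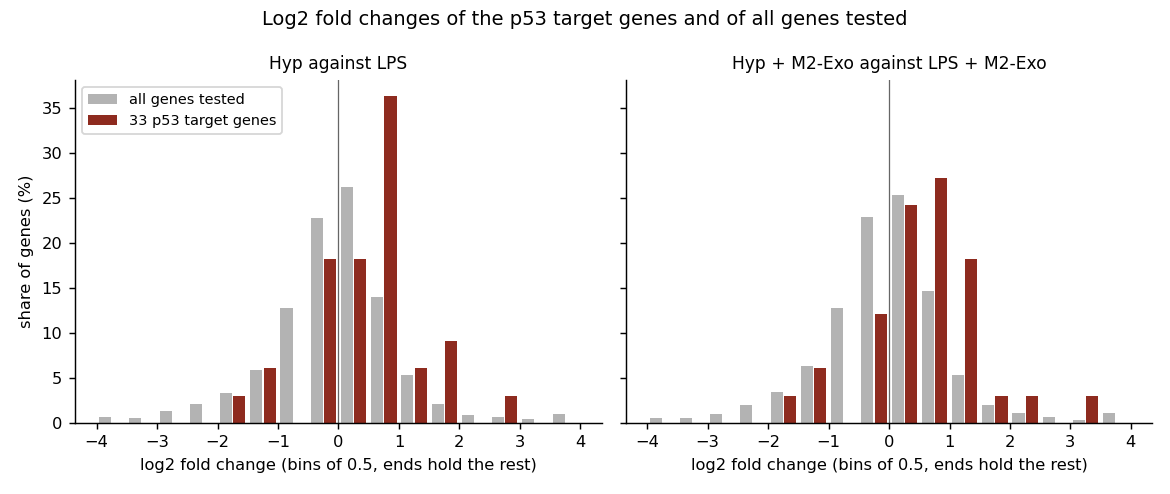
Share of genes (%) in bins of log2 fold change of width 0.5 for all genes tested (grey) and for the 33 p53 target genes (red), for Hyp against LPS (left) and for the same groups with M2-Exo (right); the end bins also hold what lies beyond them. The bin from 0.5 to 1 holds 12 of the 33 genes in the left panel, 36.4%, against 14.0% of all genes.

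Among p53 and its inhibitors, the gene for p53 and its main inhibitor moved apart. Trp53 (chr11:69580359-69591873 in GRCm38, as for all positions here) stood at 33.5, 33.8 and 34.9 FPKM in the LPS libraries and 24.8, 25.9 and 28.6 in Hyp. All 3 hyperoxia libraries lay below all 3 LPS libraries, a log2 fold change of -0.46 ± 0.053 (SE; edgeR adjusted p = 8.96e-05). Mdm2 (chr10:117688888-117710758), the ubiquitin ligase that removes p53, stood at 9.87, 9.54 and 8.57 FPKM in LPS and 19.6, 19.9 and 19.1 in Hyp. The groups were far apart, with Mdm2 1.97-fold higher in Hyp (log2 fold change 0.98 ± 0.050, edgeR adjusted p = 7.82e-07). Ppm1d, a phosphatase that switches p53 signalling off again, was 1.67-fold higher, at 26.6 to 28.5 FPKM against 15.0 to 16.2. Mdm4, the partner of Mdm2 that blocks p53 at promoters, was called lower by a small amount, with overlapping FPKM and a log2 fold change of -0.15 ± 0.043 (edgeR adjusted p = 0.0137), and the call was lost under 5 of 16 other settings with adjusted p up to 0.441.

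In the arrest group 6 of 7 genes were higher in Hyp and 1 was lower, where 38% and 37.8% of all genes were, and this group held the largest change of the list. Cdkn1a (chr17:29090979-29100722), whose product p21 inhibits the kinases that drive the cell cycle, stood at 8.07, 8.27 and 8.24 FPKM in LPS and 64.1, 67.9 and 66.1 in Hyp. The 2 groups did not come near each other, and the 3 libraries within each differed little. The fit gave a 7.57-fold higher level in Hyp (log2 fold change 2.92 ± 0.039, edgeR adjusted p = 8.02e-09), larger in size than that of 97.1% of all genes tested. Per length, Cdkn1a moved from rank 16 of the 33 genes in LPS to rank 2 in Hyp, behind Plk2. A stretch of 110 bases in a Cdkn1a transcript is 99.1% identical to one in Top1, so a few reads could be shared between them.

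Plk3 and Plk2, polo-like kinases of the stress response, were both higher. Plk3 stood at 4.64, 4.65 and 4.70 FPKM in LPS and 18.1, 17.8 and 18.9 in Hyp, a 3.68-fold difference (edgeR adjusted p = 4.74e-08). Plk2 was the most abundant of the 33 genes per length in all 4 groups, with a mean of 67.3 ± 1.8 FPKM (SD, n = 3) in LPS and 122.8 ± 2.2 in Hyp. Ccng1 (chr11:40748552-40755311), cyclin G1, stood at 21.0, 20.2 and 20.6 FPKM in LPS and 43.9, 44.4 and 42.4 in Hyp, so that every hyperoxia library was above every LPS library. The Ccng1 log2 fold change was 0.99 ± 0.035 (edgeR adjusted p = 1.29e-07). Gadd45a, which acts in growth arrest after DNA damage, was 1.91-fold higher and varied more among the Hyp libraries (10.7 to 14.2 FPKM) than among the LPS ones (5.89 to 6.15). A transcript on the opposite strand, E230016M11Rik, overlaps Gadd45a with 17 to 56 counts a library. Btg2, which slows entry into S phase, was 1.28-fold higher. Sfn, the 14-3-3 sigma protein that holds cells in G2, went the other way, at 2.19 to 2.44 FPKM in LPS and 1.03 to 1.41 in Hyp (log2 fold change -1.02 ± 0.161, edgeR adjusted p = 0.000554).

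**Figure D2:**
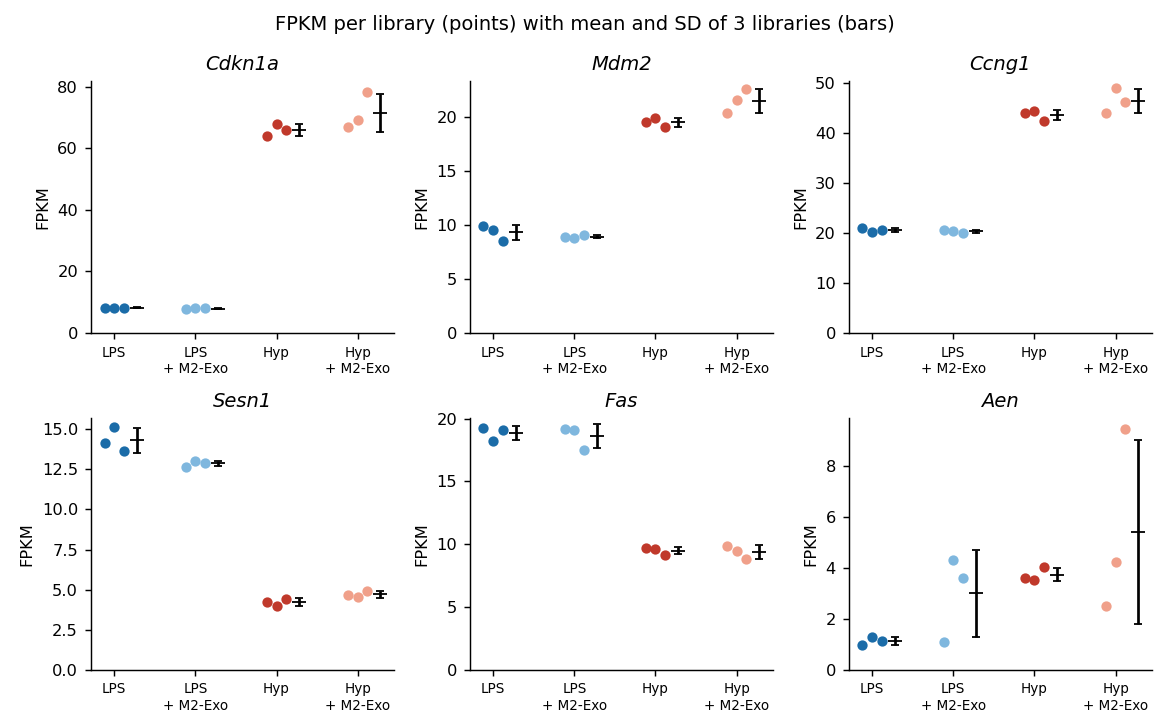
FPKM (vertical axis, from 0) of Cdkn1a, Mdm2, Ccng1, Sesn1, Fas and Aen in each of the 12 libraries (points, coloured by group), with the mean and SD of each group of 3 beside them (bars). The first 3 genes are higher and Sesn1 and Fas lower in both hyperoxia groups, and Aen spreads widely within the 2 groups that received M2-Exo.

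The death receptors and apoptosis genes did not move as one. Of the 12, 8 were higher in Hyp, 1 was lower and 3 were not called, where 38% of all genes tested were higher and 37.8% lower. The share called in either direction was close to the 75.8% of all genes tested, but most of these calls were higher. Fas (chr19:34290659-34327770), the receptor for Fas ligand, stood at 19.3, 18.2 and 19.1 FPKM in LPS and 9.67, 9.65 and 9.16 in Hyp. It was 2.11-fold lower in Hyp (log2 fold change -1.08 ± 0.058, edgeR adjusted p = 1.05e-06), with no overlap of the groups. Tnfrsf10b, the mouse receptor for the death ligand TRAIL, was in contrast 1.63-fold higher in Hyp, at 17.9 to 19.7 FPKM against 10.6 to 11.3. Eda2r, a death domain receptor on the X chromosome, was the scarcest of the 33 genes per length in LPS and overlapped Pmaip1 in Hyp, with 14, 24 and 14 counts in LPS and 91, 68 and 102 counts in Hyp. Its log2 fold change of 1.94 ± 0.245 (edgeR adjusted p = 0.000151) therefore rests on few reads.

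Bbc3, which encodes the BH3-only protein PUMA, was 1.20-fold higher (edgeR adjusted p = 0.0192), a call lost under 4 of 16 other settings with adjusted p up to 0.0649. Pmaip1, which encodes NOXA, had a log2 fold change of -0.10 ± 0.297 and 29 to 58 counts in these 6 libraries. Apaf1, the core of the apoptosome, had a log2 fold change of 0.01 ± 0.041, and Perp, a membrane protein, one of 0.08 ± 0.052 although its FPKM did not overlap (29.8 to 33.4 in LPS, 34.7 to 36.5 in Hyp). Phlda3, an inhibitor of Akt signalling, was 1.65-fold higher, Pidd1, a death domain adaptor, 1.63-fold, Trp53inp1, a p53 cofactor in stress, 1.40-fold, and Ei24, a protein of the endoplasmic reticulum, 1.28-fold. Aen, a nuclease of apoptotic cells, was 3.10-fold higher in Hyp, at 3.62, 3.54 and 4.02 FPKM against 0.97, 1.29 and 1.12 in LPS (edgeR adjusted p = 2.93e-06).

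Of the repair genes, Polk and Rrm2b were higher in Hyp. Polk (chr13:96480689-96542485), a DNA polymerase that copies past damaged bases, stood at 5.39, 5.43 and 5.39 FPKM in LPS and 12.7, 12.1 and 11.7 in Hyp. That is a log2 fold change of 1.08 ± 0.053 (edgeR adjusted p = 6.33e-07). Rrm2b, the p53-inducible subunit of ribonucleotide reductase, was 1.48-fold higher. Xpc and Ddb2 recognise damage in nucleotide excision repair. Xpc was not called (log2 fold change -0.06 ± 0.069), and Ddb2 was called lower at an edgeR adjusted p of 0.0437, with FPKM that overlapped between the groups (4.19 to 4.66 in LPS, 3.79 to 4.34 in Hyp). Ddb2 overlaps Acp2, a gene on the opposite strand with 981 to 1337 counts a library, and the call was lost under 10 of 16 other settings.

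Sesn1 was the member that stood furthest below its LPS level in Hyp. Sestrin 1 restrains mTORC1 and limits peroxides, and Sesn1 (in LPS 14.1, 15.2 and 13.7 FPKM) stood at 4.25, 3.98 and 4.43 FPKM in Hyp. The groups were far apart in the plot of the 6 genes, and the fit gave a 3.61-fold lower level (log2 fold change -1.85 ± 0.066, edgeR adjusted p = 1.44e-07). Abhd4, a lipid hydrolase, was 1.32-fold lower. The other genes of this group were higher: Tigar, a phosphatase that slows glycolysis, by 1.63-fold, Gdf15, a secreted stress factor, by 2.68-fold at under 1 FPKM in all libraries, Zmat3, an RNA-binding zinc finger protein, by 1.42-fold, and Fbxw7, a ubiquitin ligase subunit, by 1.43-fold. Gm37240, on the opposite strand, overlaps the Fbxw7 locus along its whole length of 163931 bases. It had 60 to 212 counts a library, where Fbxw7 had 227 to 646.

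**Figure D3:**
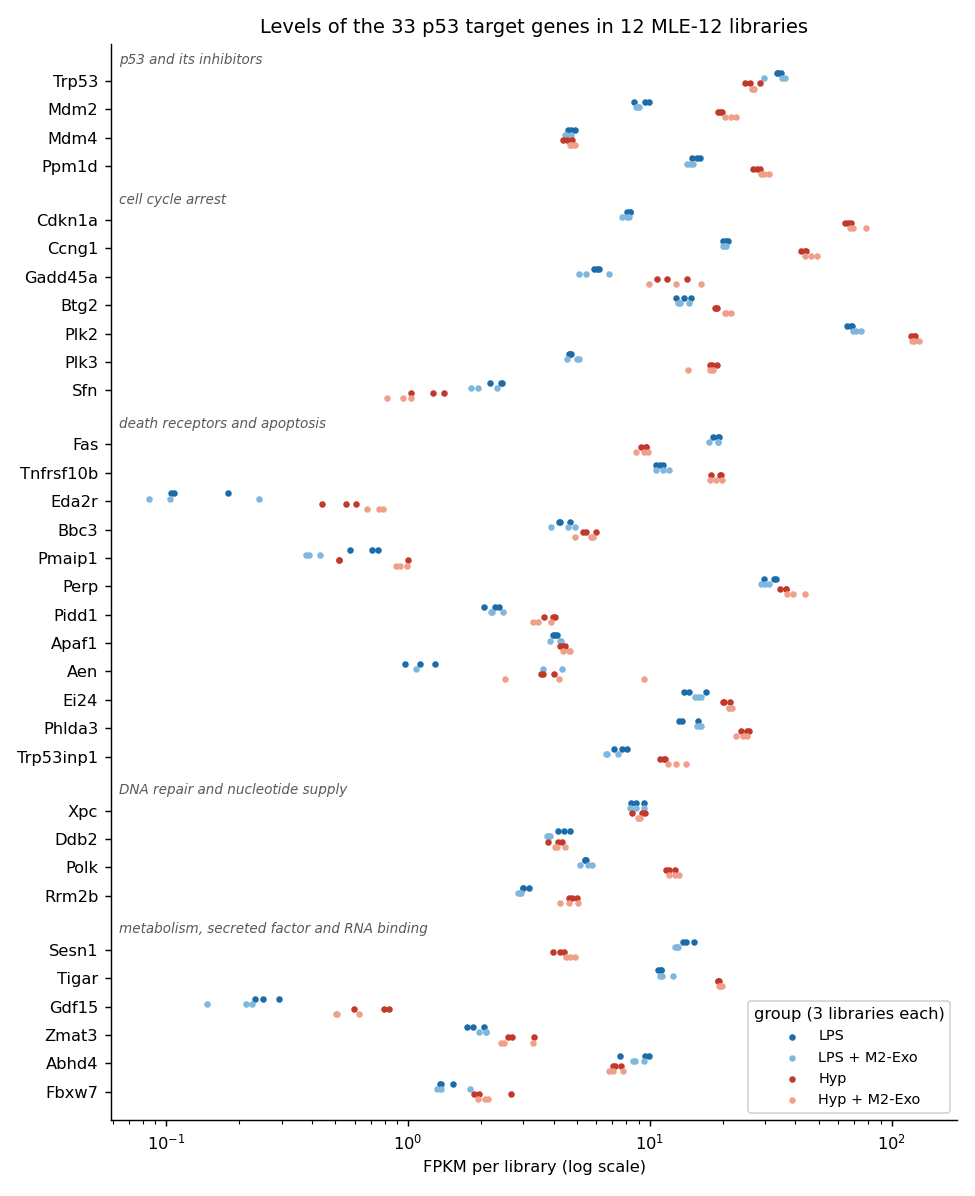
FPKM per library on a log scale for the 33 p53 target genes, grouped by role, with the 3 libraries of each group as points. Plk2 lies furthest right in all 4 groups, Cdkn1a moves from between 7.66 and 8.27 to between 64.1 and 78.4 FPKM, and Eda2r, Gdf15 and Pmaip1 stay below 1 FPKM in all 12 libraries.

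The order of the levels changed mainly through the genes named above. The median over the 33 genes was 7.59 FPKM in LPS and 9.49 FPKM in Hyp. Of the 32 pairs of neighbours in the order of mean FPKM, 11 had overlapping libraries in LPS, 15 in LPS + M2-Exo, 17 in Hyp and 15 in Hyp + M2-Exo, so the exact order of those neighbours cannot be read. The top in LPS ran from Plk2 through Trp53 (34.1 FPKM), Perp (31.9) and Ccng1 (20.6) to Fas (18.9), with no overlap between neighbours. In Hyp it ran from Plk2 through Cdkn1a (66.0 FPKM) and Ccng1 (43.6) to Perp (35.9), again without overlap.

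The same comparison in the presence of M2-Exo used 6 other libraries and 13660 genes tested. Of the 33 genes, 22 were higher in Hyp + M2-Exo than in LPS + M2-Exo (66.7%, against 37.1% of all genes) and 5 were lower (15.2%, against 36.5%), and 6 were not called. Asking also for 1 or more on the log2 scale, 9 were higher, against 10.4% of all genes, and 3 lower, against 13.6%. The median log2 fold change was 0.53, against 0.0083 over all genes. Cdkn1a again led, at 7.66, 8.22 and 8.03 FPKM in LPS + M2-Exo and 67.0, 69.1 and 78.4 in Hyp + M2-Exo (log2 fold change 3.07 ± 0.071, edgeR adjusted p = 4.95e-08). Sesn1, at 12.7, 13.02 and 12.9 FPKM against 4.67, 4.51 and 4.92, was again the furthest below.

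Of the 29 genes called without M2-Exo and the 27 called with it, 25 were called in both in the same direction (86.2% and 92.6%; over all genes 89.1% and 91.8%) and 0 in opposite directions. Aen, Bbc3, Ddb2 and Mdm4 were called without M2-Exo alone, and Pmaip1 and Perp with it alone. For Pmaip1 the values were 0.431, 0.377 and 0.388 FPKM in LPS + M2-Exo and 0.888, 0.923 and 0.990 in Hyp + M2-Exo (edgeR adjusted p = 0.000695), from 16 to 55 counts a library. Across the 33 genes the log2 fold changes with and without M2-Exo had a Pearson r of 0.943, against 0.952 across all 13535 genes tested in both; genes are not independent replicates. The test of whether the difference between the injuries itself changed with M2-Exo, the interaction over all 12 libraries and 14187 genes, called 0 of the 33 genes (0.0352% of all genes) in edgeR, and 0 in DESeq2 and limma. At an unadjusted p under 0.05 it held 9 of the 33 (27.3%, against 9.78% of all genes), and the lowest edgeR adjusted p was 0.284, for Sesn1.

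**Figure D4:**
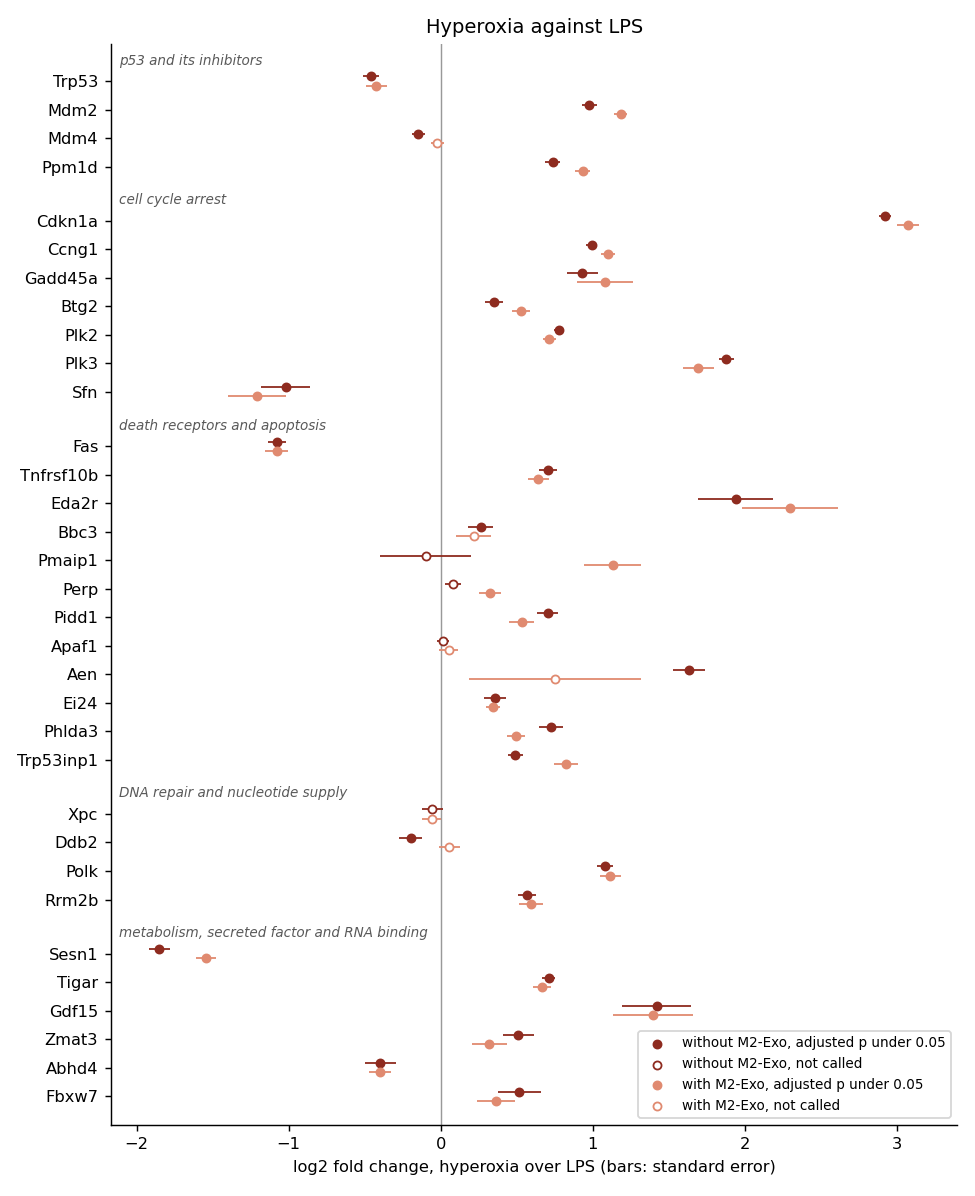
Log2 fold change of hyperoxia over LPS for the 33 genes by role, without (dark) and with (light) M2-Exo; bars are standard errors of the edgeR fit, filled points were called at an adjusted p under 0.05 and open points were not. Most points lie right of 0, with Cdkn1a at 2.92 and 3.07, while Sesn1, Fas, Sfn, Abhd4 and Trp53 are filled and left of 0 in both.

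M2-Exo itself was then compared with its absence within each injury. In hyperoxia, edgeR called 0 of the 33 genes (0.101% of 13815 genes tested), as did DESeq2 and limma, with 5 of the 33 at an unadjusted p under 0.05 (15.2%, against 8.48% of all genes) and a lowest adjusted p of 0.544. In LPS, edgeR again called 0 (0.187% of 13353 genes), as did DESeq2 and limma, with 5 at an unadjusted p under 0.05 (15.2%, against 11.1%) and a lowest adjusted p of 0.268. The medians of the log2 fold changes were 0.036 in hyperoxia and -0.013 in LPS. Cdkn1a had a log2 fold change of 0.12 ± 0.059 with M2-Exo in hyperoxia and -0.03 ± 0.060 in LPS. Neither was called (edgeR adjusted p = 0.606 and 0.885).

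In hyperoxia the 3 libraries with M2-Exo did not overlap the 3 without it, in counts scaled to the normalized library size (CPM), for 9 of the 33 genes, all higher with M2-Exo (Mdm2, Ppm1d, Ccng1, Btg2, Eda2r, Perp, Trp53inp1, Sesn1 and Tigar); 16% of all genes tested did not overlap in either direction. None of the 9 was called. Mdm2, for example, stood at 19.6, 19.9 and 19.1 FPKM in Hyp and 20.4, 21.6 and 22.6 in Hyp + M2-Exo (log2 fold change 0.14 ± 0.044, edgeR adjusted p = 0.544). In LPS the groups did not overlap for 6 genes, Plk2 higher and Pmaip1, Ddb2, Rrm2b, Sesn1 and Gdf15 lower with M2-Exo. As a share of the 33 this was close to the 17.2% of all genes. The lowest adjusted p in LPS was that of Pmaip1, with 37, 29 and 36 counts in LPS and 19, 16 and 19 in LPS + M2-Exo (log2 fold change -0.75 ± 0.210).

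Aen stood apart by its spread within the groups given M2-Exo. Its level was 1.08, 4.32 and 3.60 FPKM in LPS + M2-Exo and 2.51, 4.23 and 9.46 in Hyp + M2-Exo. The highest library of each was 3.92-fold and 3.69-fold above the lowest in CPM, a wider range than in 99.7% and 99.6% of the 14187 genes, while within Hyp it was 1.13-fold and within LPS 1.31-fold. Because of this spread the log2 fold change of 1.42 ± 0.436 in LPS had an edgeR adjusted p of 0.307, and it became 1.82 ± 0.132 with an adjusted p of 0.00561 without LPS + M2-Exo replicate 1. In hyperoxia the value of 0.53 ± 0.405 became -0.15 ± 0.199 without Hyp + M2-Exo replicate 3. The difference between the injuries in the presence of M2-Exo also turned on these libraries, at 0.08 ± 0.503 without Hyp + M2-Exo replicate 3 against 0.75 ± 0.564 with it, and was not called in either. Stretches of 113 or 114 bases in Aen transcripts are 98.2% to 99.1% identical to stretches in other genes. Of these, Gm11261, Gm11851 and Gm15298 had a mean count of 0. AC141429.2, Gm14654 and Gm44873 have no counts under these names, and any part of shared reads in the spread was not tested.

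**Figure D5:**
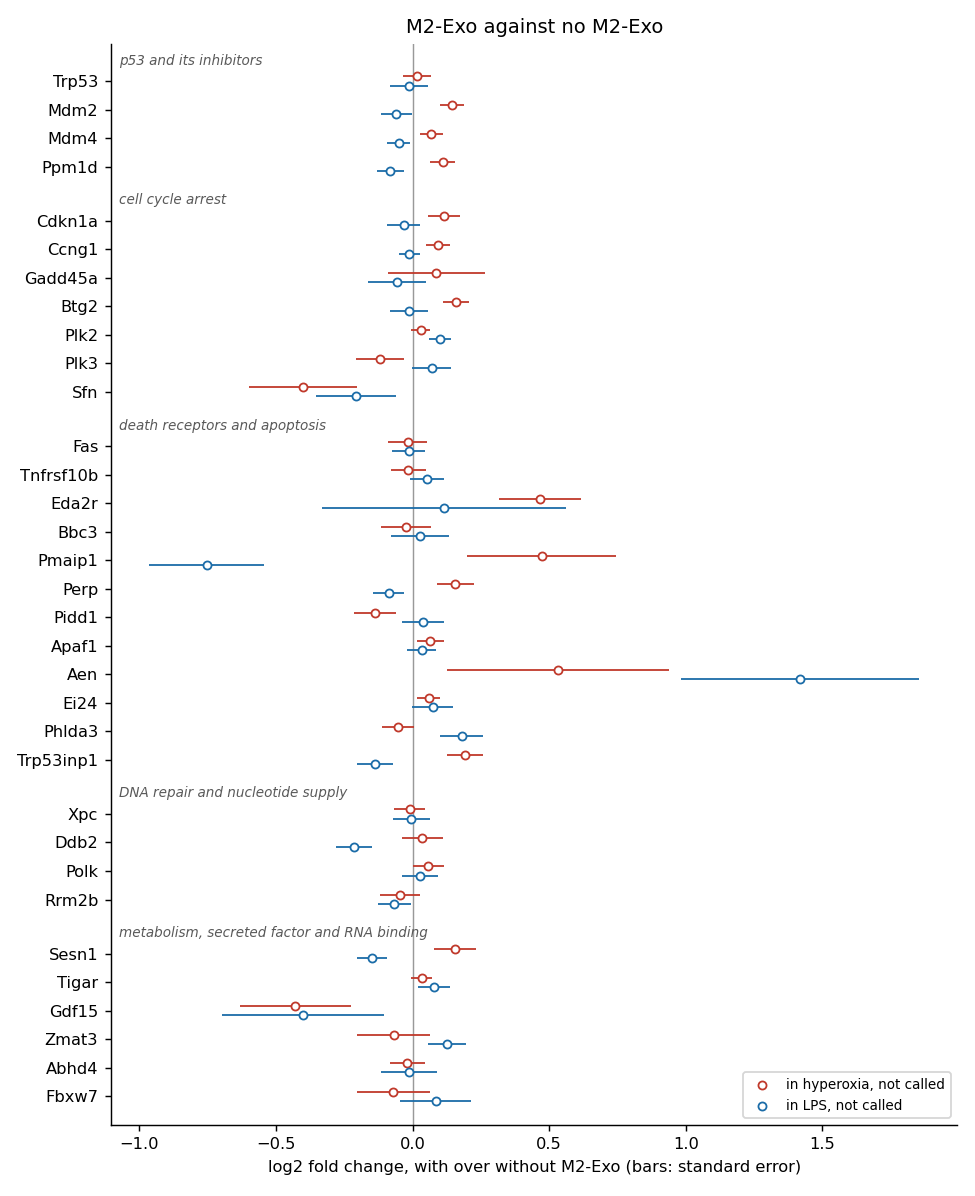
Log2 fold change with over without M2-Exo for the 33 genes by role, in hyperoxia (red) and LPS (blue); bars are standard errors of the edgeR fit, and all points are open because none was called. All genes but Aen and Pmaip1 lie within 0.5 of 0; in LPS these 2 lie at 1.42 and -0.75.

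Other genes of the pathway, from written lists, were read from the same fits. Of 19 tested regulators and partners of p53, 6 were higher and 8 lower in Hyp than in LPS, and the share called (73.7%) was close to the 75.8% of all genes. Cdkn2a, 1 of whose products, ARF, blocks Mdm2, had a mean of 180.8 ± 6.3 FPKM (SD, n = 3) in LPS and 82.1 ± 5.0 in Hyp (log2 fold change -1.23 ± 0.048, edgeR adjusted p = 2.1e-07). The counts are per gene and do not separate ARF from other products of Cdkn2a. Sirt1, a deacetylase of p53, was 2.76-fold higher, Hipk2, a kinase of p53, 1.78-fold lower, and Trp63, a p53 family member, was lower at no more than 0.136 FPKM in these groups. Of 20 further p53 targets, 10 were higher and 7 lower (85% called, against 75.8% of all genes), with a median log2 fold change of 0.23. The largest changes were those of Igfbp3 (log2 fold change 1.85), Sesn2 (1.66), Gpx1 (1.38) and Epha2 (1.25). Sesn2, which encodes sestrin 2, thus differed between the injuries in the direction opposite to Sesn1.

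The list of G2 and M phase genes that p21 is known to repress through the DREAM complex had 6 of 16 higher and 7 lower in Hyp. These were near the shares of all genes (38% and 37.8%), with a median log2 fold change of -0.0076. Whether p21 acts through this complex in MLE-12 cells was not tested. Ccnb2, cyclin B2, had the largest change, a log2 fold change of -1.30 ± 0.053, and Cenpf came next at -0.618 ± 0.027. Bub1 and Birc5, of the spindle checkpoint and chromosome segregation, were in contrast higher by 0.611 and 0.48. Some p53 targets, such as Gdf15 and, among the further targets, Sesn2, are also known to answer to ATF4 and CHOP, transcription factors of the integrated stress response. Of 12 genes of that response, 11 were higher in Hyp and 1 was lower (38% and 37.8% of all genes), with a median log2 fold change of 1.69. Ddit3, which encodes CHOP, stood at 4.67 to 5.30 FPKM in LPS and 47.5 to 48.9 in Hyp, and the next largest changes were those of Trib3 (log2 fold change 2.77), Chac1 (2.27) and Atf3 (2.24). The part of this response in the levels of the p53 target genes was not tested. With M2-Exo present, 37.1% of all genes tested were higher in hyperoxia and 36.5% lower. Of the 19 regulators 5 were higher and 7 lower, and of the 20 further targets 9 and 5. Of the 16 G2 and M genes 6 were higher and 7 lower, and of the 12 ATF4 and CHOP genes 11 and 1. In the comparisons of M2-Exo with its absence, edgeR called 0 genes of these 4 lists in both injuries.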

How the data were processed

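The members and gene lists were chosen with earlier results of these data known. Per the study's methods, RNA of MLE-12 cells was sequenced on an Illumina NovaSeq instrument, reads were filtered with Seqtk and mapped with HISAT2, and the submitters' notes name HISAT2 2.0.4, StringTie 1.3.0 and the GRCm38 build. The counting program and its strand setting are not given in the sources used here, so reads of genes that overlap on opposite strands may not be separable. For each library the authors deposited raw counts and FPKM of 34745 genes. These FPKM, as deposited, follow from the counts, a length per gene and the library total to a relative 4.64e-05, so the FPKM carry no TMM scaling.

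Counts were tested in R 4.3.3 with edgeR 4.0.16 (filterByExpr, TMM, quasi-likelihood F test, only the 2 groups compared, Benjamini-Hochberg adjustment over all genes tested), and FPKM served as levels. The standard error is the size of the log2 fold change divided by the square root of F. All count and FPKM columns of the libraries were used (0 left out). The scripts were tested on simulated data. Alternatives were other scalings and filters, DESeq2 1.42.0, limma 3.58.1 on log2(FPKM + 1) or log2(FPKM + 0.1), a fit of all 12 libraries, the replicate number as a block, stricter call rules, and leaving out each library. All 33 members were named and accounted for. Of each pathway list, up to 4 called genes with the largest absolute log2 fold change were named per comparison. Gene positions are those of the deposited table (GRCm38). By identifier all 33 genes were found in GENCODE M21, 22 with the same start and end. Transcripts were searched with blastn 2.17.0 for stretches of at least 100 bases and 98% identity in other genes, present for 4 of the 33, and 7 of the 33 overlap another gene by position. Promoter windows of RefSeq were searched for the p53 half-site with Python 3.11.15.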

Additional observations from a re-analysis of the deposited data

How the results depend on the processing

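No call of a p53 target gene in the comparisons of Hyp with LPS changed direction under any alternative run. Of 460 values of single genes without M2-Exo, 20 lost the call, those of Ddb2, Mdm4, Bbc3 and Abhd4; of 425 with M2-Exo, 10 did, those of Zmat3 and Fbxw7. Calls lost by leaving out a single library (log2 fold change without it) were those of Bbc3 without LPS replicate 1 (0.23), LPS replicate 2 (0.23) or Hyp replicate 3 (0.22), Mdm4 without Hyp replicate 1 (-0.11), and Ddb2 without LPS replicate 2 (-0.21), LPS replicate 3 (-0.15), Hyp replicate 1 (-0.21) or Hyp replicate 3 (-0.13). With M2-Exo they were Zmat3 without any 1 LPS + M2-Exo library (0.28 to 0.33) or Hyp + M2-Exo replicate 2 (0.18), and Fbxw7 without LPS + M2-Exo replicate 1 (0.27) or 2 (0.30) or Hyp + M2-Exo replicate 2 (0.36) or 3 (0.34). Without M2-Exo, the median log2 fold change of the 33 genes was 0.61 with library size alone and 0.44 with limma on log2(FPKM + 1) and no filter, where 4 genes were called lower. With M2-Exo, it was 0.62 with library size alone, 0.50 and 0.59 with limma on log2(FPKM + 1) and log2(FPKM + 0.1) after the filter, and 0.47 with no filter. The FPKM carry no TMM scaling. Library size alone moved the median of all genes to 0.099 in both comparisons and the shares called higher and lower to 42.9% and 33.6% without M2-Exo and 41.9% and 32.4% with it. Limma after the filter gave medians of all genes from 0.093 to 0.107. The medians of the 33 genes lay above the main 0.52 and 0.53 with library size alone and log2(FPKM + 0.1). With log2(FPKM + 1) they lay below. Asking also for 1 or more on the log2 scale left 6 genes higher and 3 lower (9 in all) without M2-Exo and 9 and 3 (12 in all) with it. The thresholds of the study, an unadjusted p and a change of 2 or more on the log2 scale, left 1 higher and 0 lower (1 in all), and 2 and 0 (2 in all). Leaving out 1 library each time, the median lay between 0.49 and 0.58 without M2-Exo, and between 0.47 and 0.56 with it. In LPS with M2-Exo against without, the count of calls lay between 0 and 1 (Aen, without LPS + M2-Exo replicate 1) and the median between -0.023 and 0.0059. The causes of these shifts were not tested.

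With the replicate number as a replicate block, 28 genes were called without M2-Exo and 26 with it, and 0 in the comparisons of M2-Exo with its absence and in the interaction. Deviations of same-numbered libraries correlated by -0.018 to 0.051, which gave no sign of a pairing by number. Such values cannot show that the libraries are unpaired. Eda2r, Pmaip1 and Gdf15 are limited by depth, with levels under 1 FPKM.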
